A study of Homo sapiens with 33 samples.

Results

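ICOS, CD28, CTLA4, CD2, CD4, CD5, CD6, CD7, CD8A and CD27 are surface receptors by which T cells are recognised and costimulated. Their probe sets were found by symbol: 17 of the 22215 probe sets used carried 1 of these names alone in the array's annotation, and they stood for 10 of the 11963 named genes. In these lymphoma cells ICOS was lower on every array in which the ALK kinase was depleted by a hairpin or its inhibitors A2 or A3 were given than on any array of the matching controls. CTLA4 fell with A2 and A3 and by less, in TS cells at 84 h, with the hairpin. The hairpin difference was no longer called with a measure of RNA quality in the fit. Of the other 8 receptors, CD28 and CD7 were dim on all arrays. CD5 was lower with A2 and A3 than in untreated cells, but was not called against A1, the control compound. The differences called for CD27 and, by the probe set used in the fit, CD6 were each lost when single arrays were left out. So was that for CD2, which among the compound arrays reached the dim limit only in the control groups, where it was higher.

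Expression was measured on 33 Affymetrix HG-U133A arrays, 1 per sample, in 11 groups of 3. TS (a subclone of the Sup-M2 line) and Su-DHL1 are human cell lines of ALK-positive anaplastic large cell lymphoma (ALCL). This tumour of T cells is driven by a fusion of the anaplastic lymphoma kinase. In 7 groups the cells carried the lentiviral vectors pLV-DsRed-tTRKRAB, a doxycycline-controlled repressor, and pLVTH-GFP-shRNA, which encodes the hairpin. The uninduced cells carry both vectors too. Cells positive for GFP and DsRed were sorted after 12 h of induction, cells with GFP in the absence of inducer were removed in a second sort, and the remainder was expanded. The hairpin A5 targets ALK and A5M is its mutated control. The hairpin groups were TS with A5 at 84 h and at 72 h and Su-DHL1 with A5 at 72 h, each with doxycycline (1 microg/ml, induced) and without it (uninduced), and TS with A5M at 84 h with doxycycline. The 33 samples hold no uninduced A5M group. In the compound groups, TS cells had received pyrrolocarbazole-derived A2 or A3, compound A1 or no compound (U, untreated in the descriptions and diluent in the design text) for 6 h, each compound at 300 nM. The design text calls A1 the mock compound whereas the sample descriptions call it an ALK inhibitor, and A1 is used here as the control for A2 and A3. The labels do not say that replicates were separate cultures, and the spread that the p-values rest on may thus be technical.

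T cells need, besides the signal of the T-cell receptor, a costimulatory signal. CD28 and its relative ICOS bind ligands of the B7 family (CD80 and CD86 for CD28, ICOSLG for ICOS) and recruit PI3-kinase, whereas CTLA4 competes with CD28 for the same ligands and restrains the cell. CD27, of the TNF receptor family, is bound by CD70. CD2 is an adhesion and signalling receptor for CD58. CD5 and CD6 are scavenger-receptor family proteins that tune antigen receptor signals, CD4 and CD8A are the coreceptors for MHC class II and class I, and CD7 is an early T-lineage antigen. ALK-positive ALCL is known for the loss of many T-cell antigens from the cell surface.

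In the RefSeq gene order of assembly GRCh38.p14, CD28, CTLA4 and ICOS are direct neighbours on chromosome 2, CD6 and CD5 are neighbours on chromosome 11, and CD8A lies beside CD8B on chromosome 2. Because ICOS and CTLA4 carried the differences, the 250 bases before their annotated starts are shown, taken from the RefSeq promoter table (GRCh38.p14), which held entries for 6 of the 10 genes. The ICOS stretch is chr2:203936513-203936762 and the CTLA4 stretch chr2:203867521-203867770, both on the plus strand. Capitals mark letters that matched 1 of 5 motifs searched on both strands. The motifs were TTCNNNGAA (STAT), TGANTCA (AP-1), GGAAAA (the NFAT core), TATAAA (the TATA box) and TGACGTCA (the cyclic AMP response element), and no matches overlapped in these stretches.
ICOS: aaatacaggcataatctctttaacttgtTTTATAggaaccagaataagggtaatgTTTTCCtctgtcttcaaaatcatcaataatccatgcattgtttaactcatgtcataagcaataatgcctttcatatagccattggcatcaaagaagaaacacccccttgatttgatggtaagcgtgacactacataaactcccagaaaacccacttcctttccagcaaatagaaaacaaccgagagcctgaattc
CTLA4: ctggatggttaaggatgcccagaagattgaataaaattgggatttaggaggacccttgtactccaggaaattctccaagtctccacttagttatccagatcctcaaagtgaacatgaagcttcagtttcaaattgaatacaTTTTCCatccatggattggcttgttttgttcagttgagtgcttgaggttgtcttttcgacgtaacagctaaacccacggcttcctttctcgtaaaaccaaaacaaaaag
Both held the NFAT core on the minus strand (TTTTCC), at position -195 from the start in ICOS and -109 in CTLA4. That motif was present in 21.19% of all 35116 promoter stretches of this length. The ICOS stretch also held the TATA box letters on the minus strand (TTTATA) at position -222, as did 10.72% of all stretches on either strand. The STAT motif (6.567% of all stretches), the AP-1 motif (6.573%) and the cyclic AMP response element (1.646%) had no match in these windows. The neighbouring CD28 had no match to any of the 5 motifs. A match is a run of letters only, and binding was not measured.

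Replicate arrays correlated at 0.969 to 0.985 on the log2 scale and no arrays were identical. ALK, the target of A5, was lower in every induced A5 group: probe set 208212_s_at read 248.0 ± 44.2 (SD, n = 3) with and 2039 ± 97.2 without induction in TS cells at 84 h, and 1686 ± 46.5 with A5M. With A2 it read 2884 ± 184 against 3643 ± 594 with A1. Of the ALCL and T-cell markers, CD3D reached its array's 40th percentile on all 33 arrays and CD3E on 31, whereas LCK and ZAP70 did so on 0. The summed marker signals moved with the groups. The ALCL and T-cell list (11 of 12 genes on the array) holds ALK, the target of the hairpin, and its sums include the ALK probe sets. In TS cells at 84 h this list summed to 7945.7 to 8668.7 with and 13600.3 to 14407.7 without induction. There the NK list (5 of 7 genes on the array) summed to 1138.8 to 1342.7 against 426.8 to 565.3, and the myeloid list (7 of 8) to 2339.4 to 2483.3 against 3743.5 to 4192.7. Of the myeloid markers, the brightest CD163 probe set read 909.6 to 2738.7, CSF1R 56.2 to 570.7 and CSF3R 53.6 to 185.7, and each reached the 40th percentile on all 33 arrays, whereas CD14 (at most 21.5) and LYZ (at most 4.2) did so on 0. With the compounds the ALCL and T-cell list summed to 6889 to 7413.6 with A2 and 6717.8 to 7496.7 with A3 against 15881.7 to 17693.9 with A1. The NK list there summed to 371.3 to 427.2 with A2, 328.8 to 490.1 with A3 and 374.6 to 494.7 with A1. The myeloid list summed to 2496.3 to 2705.3 with A2 and 2810.1 to 3083.8 with A3 against 4161.2 to 4438 with A1. The ratio of the 3′ to the 5′ ACTB control probe sets is a measure of RNA quality. In TS cells at 84 h it was 1.27 ± 0.0232 with and 1.54 ± 0.0479 without induction. It was 1.05 ± 0.0255 with A2 and 1.06 ± 0.155 with A3 against 1.33 ± 0.0687 with A1. The ratios did not overlap between induced and uninduced A5 arrays of TS cells at either time, nor between A2 or A3 and A1. A fit with this ratio as covariate therefore cannot fully part RNA quality from treatment. The part of these marker signals in the receptor results was not tested.

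ICOS was lower whenever ALK was depleted, in both lines and at both times. The deposited values are MAS5 signals, a brightness per probe set on a linear scale. ICOS has 1 probe set (210439_at), and its signals in TS cells at 84 h were 126.6, 104.1 and 98.9 with the induced ALK hairpin and 675.2, 776.4 and 745.1 without induction. The induced mutated hairpin gave 498.6, 513.9 and 562.8. All 3 ALK-depleted arrays lay below all 6 others. At 72 h the signals were 91, 122.1 and 108.4 with and 762.8, 747.4 and 730.2 without induction. In Su-DHL1 cells they were 81.8, 105 and 140 with and 472, 438.8 and 419.9 without induction. Induced and uninduced values did not overlap in any of the 3 settings. In bulk RNA, fewer cells with the transcript and less of it per cell cannot be told apart.

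Fold changes are differences of mean log2(signal + 11) from limma models with Benjamini-Hochberg adjustment across every gene in the fit, and adjusted p below 0.05 was the threshold for a call. The added 11 makes changes of dim genes look smaller. ICOS fell with the ALK hairpin by 2.62 ± 0.14 (SE) on the log2 scale in TS cells at 84 h, 6.17-fold, with an adjusted p of 2.16e-13 (limma). At 72 h it fell by 2.69 (6.45-fold, limma adjusted p = 3.17e-13), and in Su-DHL1 cells it fell by 1.95 (3.86-fold, limma adjusted p = 2.50e-10). The average over the 3 settings was -2.42 ± 0.08 (limma adjusted p = 1.38e-17). Against the induced mutated hairpin, which shares doxycycline treatment, the difference was -2.15 ± 0.14 (4.45-fold, limma adjusted p = 6.32e-12). A5M was present in TS cells at 84 h only. In the induced minus uninduced differences, the average among them, doxycycline and ALK depletion therefore cannot be told apart, for ICOS or any other gene. The times differed in the TS response by 0.06 (95% interval -0.34 to 0.47, limma adjusted p = 0.950), which was not called. With the ACTB ratio as a covariate each of these ICOS decreases was still called.

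The induced mutated hairpin itself had less ICOS than uninduced A5 cells, by -0.47 ± 0.14 (limma adjusted p = 0.0388), with no overlap of the arrays. These groups differ in the vector as well as in doxycycline, which cannot be told apart. The call was lost without replicate 2 or 3 of the uninduced cells or replicate 1 or 2 of the A5M cells, with adjusted p up to 0.130.

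The ICOS response was smaller in Su-DHL1 than in TS cells at 72 h, by 0.74 ± 0.19 on the log2 scale (95% interval 0.34 to 1.14, limma adjusted p = 0.0354). The induced levels of the lines overlapped (81.8 to 140 against 91 to 122.1), whereas uninduced ICOS was lower in Su-DHL1 cells (-0.74 ± 0.14, limma adjusted p = 3.14e-04). The call on the difference between responses was lost when any of 9 single arrays was left out (replicate 1 or 3 of induced and any of uninduced TS cells, replicate 2 or 3 of induced and of uninduced Su-DHL1 cells), and with the ACTB ratio as covariate, where the adjusted p was 0.209.

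**Figure D1:**
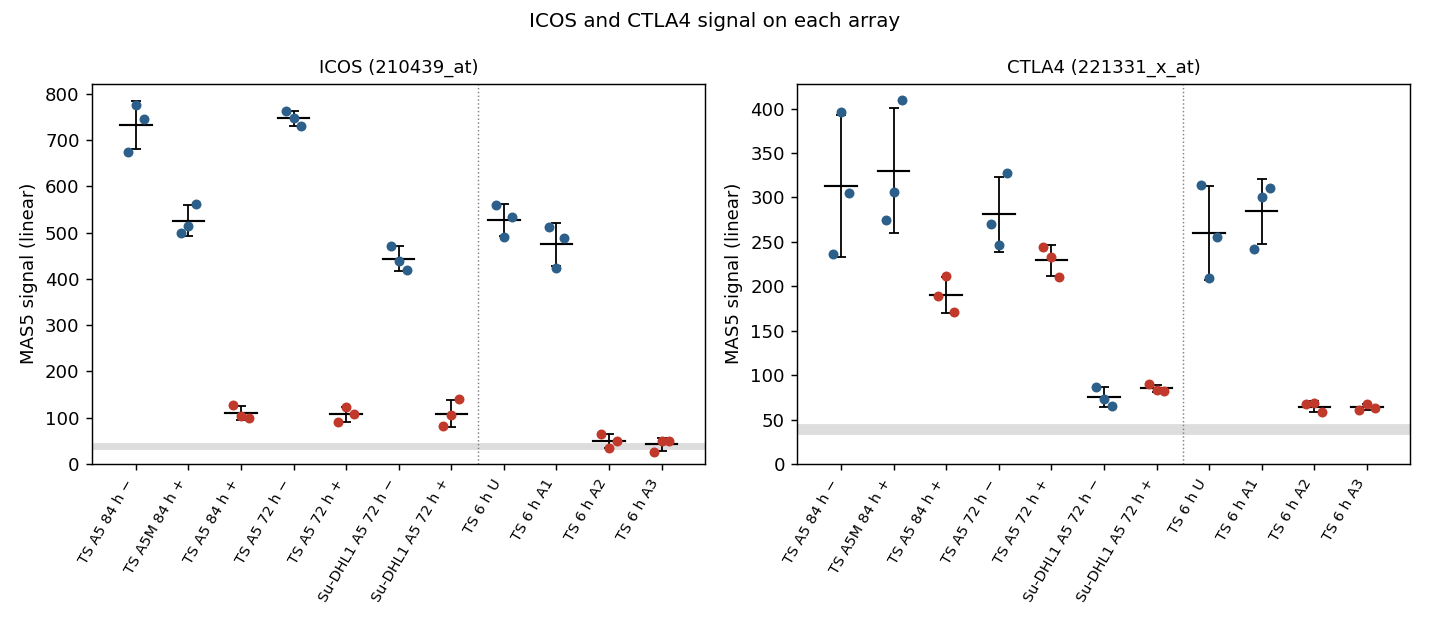
MAS5 signal (linear axis from 0) of ICOS and CTLA4 on each of the 33 arrays, by group; + and − are with and without doxycycline, black bars are means ± SD (n = 3), red points are the induced ALK hairpin, A2 and A3, blue points all other groups, the grey band is the range of the arrays' 40th percentiles (33.3 to 44.1) and the dotted line parts the hairpin from the compound arrays. ICOS reads 26.5 to 140 in the red groups and 419.9 to 776.4 in the blue ones, whereas CTLA4 is low in Su-DHL1 cells with and without induction.

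Within 6 h of A2 or A3, ICOS fell to about the array's 40th percentile, which lay between 33.3 and 44.1 and below which a probe set was treated as dim. Its signals were 64, 33.6 and 50.3 with A2 and 26.5, 49.5 and 50.6 with A3. They were 512.2, 422.9 and 488.1 with A1 and 559.3, 489.7 and 532.8 with U. All A2 and A3 arrays were lower than all A1 and U arrays. ICOS fell by 3.04 ± 0.20 with A2 against A1 (8.21-fold, limma adjusted p = 5.70e-09) and fell by 3.22 ± 0.20 with A3 against A1 (9.32-fold, limma adjusted p = 2.81e-09). The low values lie near the dim limit, and the size moved with the added constant and with the ACTB covariate: over the alternatives the A2 difference ran from -3.43 to -2.65 and the A3 difference from -3.61 to -2.78, all called. Against U the differences were -3.19 and -3.37 (limma adjusted p = 3.07e-09 and 1.37e-09). A1 did not differ from U beyond the test (-0.15, 95% interval -0.57 to 0.27, limma adjusted p = 0.911), nor did A3 from A2 (-0.18, 95% interval -0.60 to 0.24, limma adjusted p = 0.849).

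Across all 11 groups the mean ICOS signals were in the order uninduced TS at 72 h (746.8 ± 16.3, SD, n = 3 here and below), uninduced TS at 84 h (732.2 ± 51.8), U (527.3 ± 35.1), A5M (525.1 ± 33.5), A1 (474.4 ± 46.2), uninduced Su-DHL1 (443.6 ± 26.4), induced TS at 84 h (109.9 ± 14.7), induced Su-DHL1 (108.9 ± 29.3), induced TS at 72 h (107.2 ± 15.6), A2 (49.3 ± 15.2) and A3 (42.2 ± 13.6). Neighbours in this order overlapped except at 3 places. These gaps lay between uninduced TS at 84 h and U, between uninduced Su-DHL1 and the first induced group, and between induced TS at 72 h and A2. The order runs over both experiments, so it also holds whatever else differed between them.

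CTLA4, the inhibitory counterpart of CD28, fell with the ALK inhibitors by more than with the ALK hairpin, and in Su-DHL1 cells it was low throughout. Its 1 probe set, 221331_x_at, is of a kind whose probes can also match other transcripts. It read 67.6, 68.4 and 57.9 with A2 and 60.7, 67.2 and 63.4 with A3. It read 242.5, 300.1 and 310.6 with A1 and 314.4, 209.1 and 255.7 with U. Again no A2 or A3 array reached the lowest A1 or U array. CTLA4 fell by 1.96 ± 0.16 with A2 (3.89-fold, limma adjusted p = 5.71e-08) and by 1.98 ± 0.16 with A3 (3.93-fold, limma adjusted p = 5.05e-08), both against A1. Against U the differences were -1.82 and -1.84 (limma adjusted p = 1.12e-07 and 1.06e-07). A3 and A2 differed by -0.01 (95% interval -0.34 to 0.32) and A1 and U by 0.14 (95% interval -0.19 to 0.47), neither called by limma (adjusted p = 0.994 and 0.888).

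With the ALK hairpin in TS cells at 84 h, CTLA4 signals were 188.8, 211.7 and 170.7 with and 236.6, 396.8 and 305.2 without induction, and 274.7, 306.6 and 409.4 with the induced mutated hairpin. The groups did not overlap, though the control arrays were widely spread. CTLA4 fell by 0.66 ± 0.16 against uninduced cells (1.58-fold, limma adjusted p = 0.00206) and by 0.75 ± 0.16 against A5M (1.68-fold, limma adjusted p = 5.90e-04). With the ACTB ratio as a covariate neither was called (adjusted p = 0.123 and 0.0538).

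At 72 h the TS signals were 244.3, 233.3 and 210.2 with and 269.7, 246 and 327.5 without induction, which did not overlap but differed by only -0.27 (95% interval -0.61 to 0.06, limma adjusted p = 0.218). In Su-DHL1 cells CTLA4 read 89.6, 83.5 and 82.1 with and 86.9, 73.5 and 65.5 without induction, a difference of 0.16 (95% interval -0.18 to 0.50, limma adjusted p = 0.542). The average over the 3 settings was -0.26 ± 0.09 (limma adjusted p = 0.0252). That call was lost with the ACTB covariate (adjusted p = 0.380), and without replicate 3 of induced or 2 of uninduced TS cells at 84 h, replicate 3 of either TS group at 72 h, or replicate 1 of uninduced Su-DHL1 cells. The responses of the lines differed by 0.44 (95% interval -0.04 to 0.91, limma adjusted p = 0.437), which was not called.

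Uninduced Su-DHL1 cells had 3.38-fold less CTLA4 than uninduced TS cells (-1.76 ± 0.16, limma adjusted p = 2.68e-08), with no overlap. In the order of the 11 group means, the 5 uninduced or control TS groups together with the induced TS groups ran from 330.2 ± 70.4 (A5M) down to 190.4 ± 20.5 (induced TS at 84 h), each overlapping its neighbour. After a gap followed induced Su-DHL1 (85.1 ± 3.99), uninduced Su-DHL1 (75.3 ± 10.8), A2 (64.6 ± 5.84) and A3 (63.8 ± 3.27), which overlapped their neighbours again.

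Whether the inhibitors and the hairpin changed these receptors by different amounts was tested in 1 fit over all 33 arrays, chosen after the data had been seen. It set the mean of A2 and A3 against A1 beside the TS hairpin difference at 84 h. CTLA4 fell further with the inhibitors, by 1.31 ± 0.22 on the log2 scale (95% interval -1.75 to -0.87, limma adjusted p = 1.23e-05). For ICOS the difference was -0.50 ± 0.23 (95% interval -0.97 to -0.04, limma adjusted p = 0.0995), which was not called. CTLA4 was the 1 receptor of 8 called in this comparison, in which 28.2% of the 9304 genes were called. Time, agent and experiment differ together between the sides and cannot be told apart.

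CD28, the founding costimulatory receptor and chromosomal neighbour of CTLA4, was not detectable above the dim limit. Its 3 probe sets read 9.6 to 34.4 (206545_at), 3.9 to 41.9 (211856_x_at) and 0.7 to 32.7 (211861_x_at) over the 33 arrays, and reached the array's 40th percentile on 0 of them. CD7 was dim as well: its probe sets read 2.6 to 17.3 (214049_x_at) and 0.9 to 5.3 (214551_s_at), on 0 arrays at that percentile. Neither gene was therefore tested. The remaining 8 receptors passed the filter, which asked for that percentile on at least 3 arrays of a fit, in both experiments.

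CD27, the receptor of CD70, was higher in Su-DHL1 cells with the hairpin. Its signals were 73.2, 41.8 and 38.2 with and 28.5, 22.4 and 19.8 without induction. All induced arrays were higher than all uninduced ones, but CD27 reached the dim limit on 3 induced and 0 uninduced Su-DHL1 arrays. Over all groups it did so on 12 of 33 arrays. The size of this difference thus rests on values below the limit. The difference was 0.81 ± 0.27 (1.75-fold, limma adjusted p = 0.0275). It was not called without replicate 1 of the induced cells, the highest array (adjusted p = 0.181), without replicate 2 or 3 of the uninduced cells, with quantile normalization, or with only the groups compared in the fit. In TS cells CD27 read 25.6 to 44.7 with and 33.3 to 46.1 without induction at 84 h, and the differences were -0.14 at 84 h and 0.23 at 72 h, neither called. The responses of the lines differed by 0.58 (95% interval -0.20 to 1.35, limma adjusted p = 0.576). With the compounds CD27 read 38.3, 10.6 and 12.1 with A2 and 50.4, 14.4 and 14.8 with A3. In both groups replicate 1 was high and the other arrays low, and no comparison of the compounds was called for CD27.

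CD2, which binds CD58, was lower with the inhibitors than in untreated cells. It read 27.1, 25.5 and 18.4 with A2, 21.8, 32.3 and 21.4 with A3, 46.5, 49.8 and 22 with A1, and 44.9, 41.4 and 62.3 with U. All inhibitor arrays lay below all U arrays but not below all A1 arrays. The log2 differences were -0.80 with A2 and -0.74 with A3 against U, and -0.50 and -0.44 against A1. CD2 reached the dim limit on 3 U and 2 A1 arrays but on 0 arrays with A2 or A3. It thus passed the filter through the groups where it was higher, and these differences are a description. The fit called only that with A2 against U. This call was lost without replicate 1 or 3 of U or any replicate of A2, and with the ACTB covariate. With the hairpin, CD2 differed by -0.15 (TS, 84 h), 0.17 (TS, 72 h) and 0.12 (Su-DHL1), and none was called.

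CD5, a restraint on antigen receptor signals, was likewise lower with the inhibitors than in untreated cells. Its signals were 67.8, 81.7 and 102.6 with A2, 78, 105.9 and 57.9 with A3, 105.3, 107.4 and 101.1 with A1, and 135, 141.6 and 164.4 with U. Here A1 lay below U on every array as well. CD5 fell by 0.75 ± 0.19 with A2 and by 0.82 ± 0.19 with A3 against U (limma adjusted p = 0.00503 and 0.00278). Against A1 the differences were -0.30 and -0.37, not called (limma adjusted p = 0.252 and 0.153), and A1 against U was -0.45 (95% interval -0.85 to -0.05, limma adjusted p = 0.498). Both calls against U kept an adjusted p of at most 0.0309 over the alternatives run.

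With the hairpin at 72 h, CD5 in TS cells read 66.6, 46 and 80.8 with and 116.1, 91.2 and 93.9 without induction. These did not overlap, but the difference of -0.58 was not called (95% interval -1.15 to -0.02, limma adjusted p = 0.108). In Su-DHL1 cells it read 139.7, 123.7 and 94.8 with and 187.8, 121.1 and 165.9 without induction (-0.37, limma adjusted p = 0.376). The average of the 3 settings was -0.35 ± 0.16 (limma adjusted p = 0.0731). In induced TS cells at 84 h replicate 3 read 26.6 beside 95.1 and 87.4. Without replicate 1 or replicate 2 of that group, without replicate 3 of induced TS cells at 72 h or without replicate 2 of uninduced Su-DHL1 cells the average became called.

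CD6, the neighbour and relative of CD5, had 4 probe sets that did not move together. The probe set used in the fit, 211900_x_at, is like that of CTLA4 of a kind whose probes can also match other transcripts. It read 15.4, 21.2 and 39.7 with A1, 47.6, 33.5 and 60.2 with A3, 44.8, 42.6 and 47.8 with A2, and 52.4, 48.7 and 46.7 with U. The A1 arrays were low and all below U, whereas A2 and A3 overlapped U and A3 also overlapped A1. CD6 was higher with A3 than with A1 by 0.70 ± 0.26 (limma adjusted p = 0.0475). That call was lost without replicate 1 or 2 of A1 or replicate 1 or 3 of A3, with the ACTB covariate (adjusted p = 0.234), without the filter on dim probe sets, with a pseudocount of 32, and with only the groups compared in the fit. With A3 against U the difference was -0.08.

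A second CD6 probe set, 213958_at, read 50.6, 57.2 and 56.4 with A3, 9.6, 35 and 24.5 with A1, and 17.1, 19.3 and 15.7 with U. All A3 arrays were higher than all A1 and U arrays. It reached the dim limit on 3 A3 arrays, 1 A2 array and 0 arrays with A1 or U, so it passed the filter through the group where it was high and its test is not given. With A2 the same probe set read 39.9, 32.3 and 13.3. With the hairpin in TS cells at 84 h the probe sets had opposite signs (-0.58 for 211900_x_at and 0.52 for 213958_at), neither called. The others, 208602_x_at and 211893_x_at, reached the 40th percentile on 0 and 2 arrays.

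The coreceptors had 0 called differences in the 15 comparisons by limma. At an unadjusted p below 0.05 CD4 had 1 (A3 against A2) and CD8A 0. CD4 (203547_at) read 12.5 to 71 and CD8A (205758_at) 13.3 to 72.5 over all arrays, and each reached its array's 40th percentile on 25 of 33. Arrays of 1 group were often as far apart as any groups: CD4 read 44.3, 18.2 and 71 in uninduced TS cells at 84 h. CD8A read 13.3, 43.6 and 19.5 in induced TS cells at 72 h. The hairpin average was 0.15 for CD4 (95% interval -0.25 to 0.55) and -0.04 for CD8A (95% interval -0.43 to 0.35). For A2 against A1 the differences were -0.36 (95% interval -0.86 to 0.14) for CD4 and -0.06 (95% interval -0.61 to 0.49) for CD8A. Changes smaller than these intervals cannot be seen with 3 arrays a group. The other CD4 probe set, 216424_at, read at most 2.5.

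**Figure D2:**
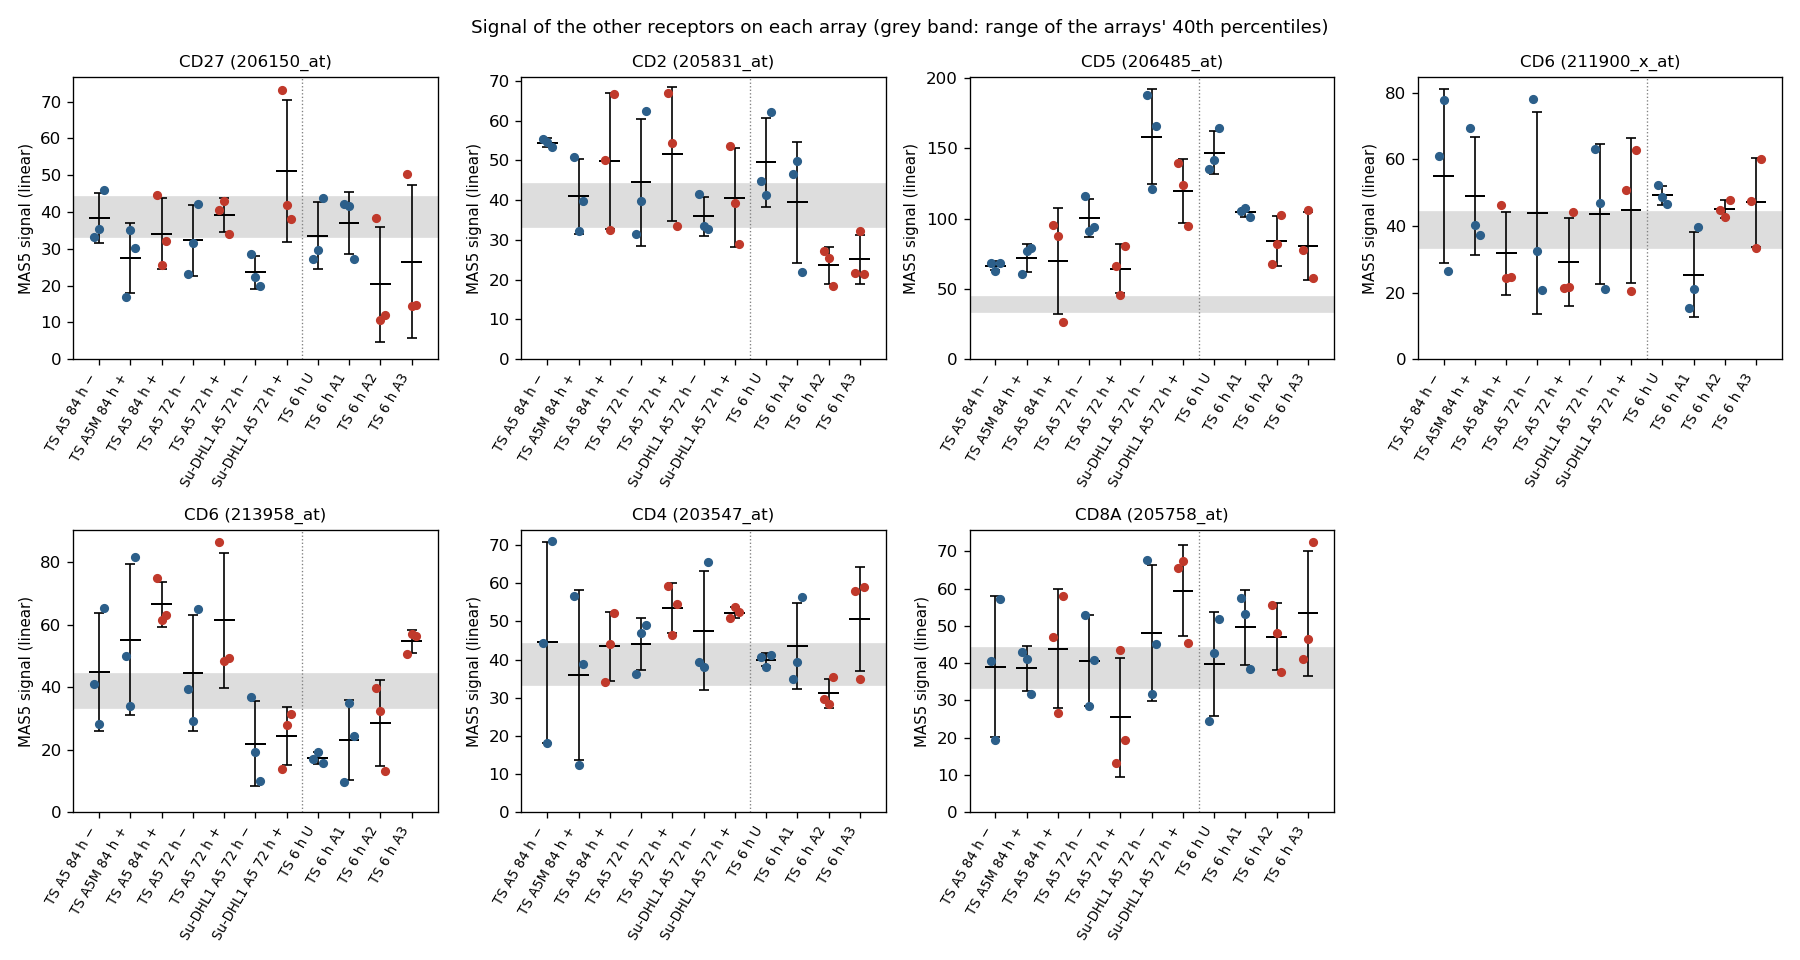
MAS5 signal (linear axes from 0) of CD27, CD2, CD5, CD6 (2 probe sets), CD4 and CD8A on each array, with points, bars (mean ± SD, n = 3), colours and dotted line as in the plot of ICOS and CTLA4. The grey band is the range of the arrays' 40th percentiles (33.3 to 44.1); apart from CD5, most values lie in or near it and the spread within a group is wide.

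In most comparisons the share of receptors called was below or near the share of all genes called, so these counts are no result about the receptors as a group. In TS cells at 84 h 2 of the 8 tested were called with the ALK hairpin (ICOS and CTLA4), where 40.6% of 9101 genes were. Against the mutated hairpin 2 of 8 were called (43.3% of all genes), at 72 h 1 (34.2%), in Su-DHL1 cells 2 (24.6%) and in the average 2 (50.8%). A5M against uninduced cells called 1 receptor (6.99% of all genes), and the difference between the lines' responses 1 (2.89%). The difference between times called 0 receptors, and also 0 at an unadjusted p below 0.05 (1.27% of all genes called). Uninduced Su-DHL1 against TS cells called 2 (21.2%). With the compounds, over 8594 genes, A2 against A1 called 2 (33.4% of all genes), A3 against A1 3 (32.7%), A2 against U 4 (35.1%) and A3 against U 3 (33.7%). The 4 take in CD2, which passed the filter only through the groups where it was higher. A1 against U called 0 receptors, with 2 at an unadjusted p below 0.05 (0.0349% of all genes called), and A3 against A2 called 0, with 1 (0.151%). The median log2 difference of the 8 was -0.15 in the hairpin average and -0.43 for A2 against A1, beside 0.07 and 0.02 over all genes. The median for A2 against A1 takes in CD2 as well. Most of the 8 lie near the dim limit, so both medians are a description.

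**Figure D3:**
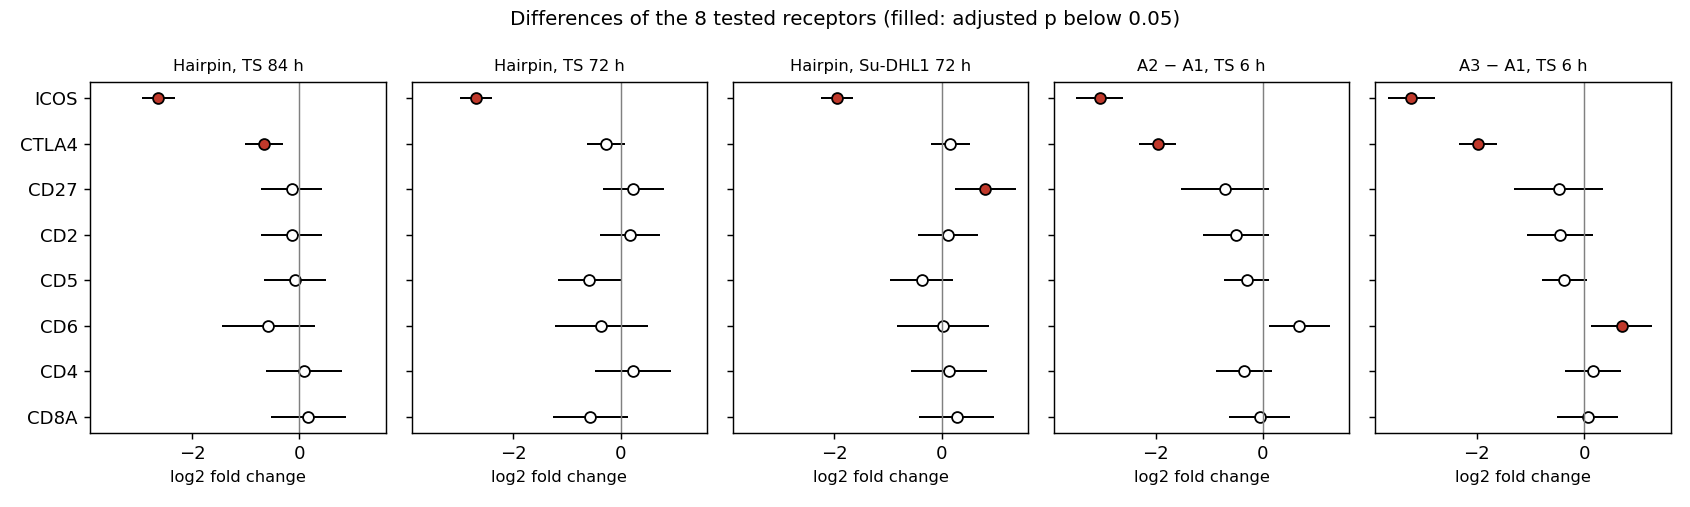
Log2 fold change (points) with 95% interval (lines) of the 8 tested receptors for the ALK hairpin (induced minus uninduced) in 3 settings and for A2 and A3 against A1; filled points passed limma's adjusted p below 0.05. ICOS lies between -3.22 and -1.95 in all 5 panels, CTLA4 at -0.66 in TS cells at 84 h and at -1.96 and -1.98 with A2 and A3, and most other intervals cross 0.

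By likeness of the 11 group means of log2 signal, among 8484 other genes tested in both experiments, ICOS was closest to MTERF3, a mitochondrial transcription factor (r = 0.973), OSM, the cytokine oncostatin M (r = 0.973), and PRKCH, a protein kinase C (r = 0.961). OSM means of log2(signal + 11) were 4.32 with and 6.93 without induction in TS cells at 84 h, and 3.67 with A2 and 6.24 with A1. In every induced A5 group and with A2 and A3 the OSM mean lay below the dim limit, so the size of its fall is a description. For CTLA4 the closest were HCRP1 (r = 0.940), AGFG1 (r = 0.935) and SLAMF8, a receptor of the SLAM family (r = 0.931). For CD5 they were IPO4 (r = 0.944), FRAT2 (r = 0.931) and NCLN (r = 0.927). For CD27 they were PSG4 (r = 0.908), FBXL4 (r = 0.899) and RAB26 (r = 0.884), and for CD8A NCBP3 (r = 0.822), FZD4 (r = 0.816) and CLBA1 (r = 0.797). In the TS hairpin groups the means of NCLN (4.34 to 5.22) and CLBA1 (4.82 to 5.24) lay below the dim limit. SLAMF8 with A2 (5.41) and FBXL4 with A2 and A3 (5.45 and 5.37) lay at about that limit or below it. CD2, CD4 and CD6 spanned less than 1 on the log2 scale over the groups and were not matched. The means of different genes come from the same arrays, and r over 11 points is a description.

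**Figure D4:**
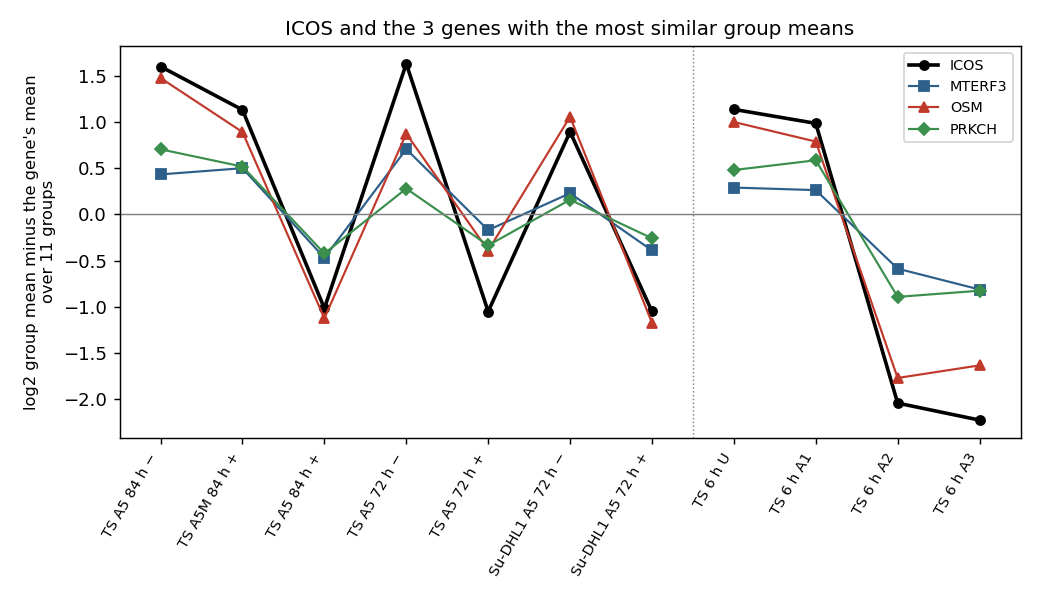
Log2 group means of ICOS, MTERF3, OSM and PRKCH, each minus its own mean over the 11 groups (vertical axis, log2 units; groups on the horizontal axis, dotted line between the experiments). All 4 are lower in each induced ALK hairpin group than in its uninduced group and with A2 and A3 than with A1, and ICOS has the widest span, 3.87.

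Several ligands of these receptors rose with the induced ALK hairpin. Of 16 listed ligands and partners, 12 were tested, and in the hairpin average 7 rose and 2 fell (median 0.29, beside 0.07 over all genes and 50.8% called). CD70, the ligand of CD27, rose by 1.57 ± 0.08 (limma adjusted p = 1.85e-14). CD58, the ligand of CD2, rose by 1.54 ± 0.09 (limma adjusted p = 1.55e-12). LGALS1, a galectin that binds CD7 and CD2, rose by 1.25 ± 0.06, and CD86, a ligand of CD28 and CTLA4, differed by 1.06. CD86 reached the dim limit only in induced A5 cells and with A2 and A3 (15 of 33 arrays). Its values are therefore a description, although the count of 7 that rose takes it in. ICOSLG, the ligand of ICOS, differed by -0.03 and CD80 by 0.24, neither called. With A2 against A1, 3 of 12 rose and 0 fell (median -0.06, beside 33.4% called over all genes), with CD70 at 1.15. CD86, at 0.87, is among these 12. It passed the filter of the compound arrays only through A2 and A3, where it was high, so this value is a description too. With A3, 2 rose and 1 fell (median -0.04, beside 32.7% called over all genes), with CD70 at 1.06 and LGALS1 at 0.91.

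Of 26 adaptors and kinases that act below the receptors, 18 were tested with the hairpin, and in the average 9 rose and 3 fell (median 0.17, beside 50.8% called over all genes). PIK3CD, the PI3-kinase catalytic subunit of lymphocytes, rose by 1.61 ± 0.17 (limma adjusted p = 2.14e-08). PSTPIP1, which binds the tail of CD2, rose by 0.85 ± 0.09, and CBLB, a ubiquitin ligase that restrains CD28 signals, rose by 0.81 ± 0.08. CD2AP, another CD2 tail adaptor, fell by 0.69 ± 0.08. With A2 and A3 against A1, 4 of 17 rose in each, and 3 and 2 fell (medians 0.11 and -0.03, beside 33.4% and 32.7% called over all genes). PIK3CD rose there by 1.09 and 1.58, and CSK, the kinase that holds back LCK, fell by 1.05 with A2 and by 1.06 with A3.

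Of 21 other costimulatory and inhibitory receptors, 7 passed the filter on dim probe sets with the hairpin, where 1 rose and 1 fell (median 0.00, beside 50.8% called over all genes). TNFRSF9, the costimulatory receptor 4-1BB, fell by 1.43 ± 0.10 (limma adjusted p = 3.20e-11), and TNFRSF14 rose by 0.70 ± 0.12 (limma adjusted p = 2.68e-05). TNFRSF9 also fell with A2 (by 1.27) and with A3 (by 1.00), so it moved in the direction of ICOS in both experiments. With A2 1 of 5 fell and 0 rose (median -0.13), and with A3 1 fell and 1 rose (median 0.11), beside 33.4% and 32.7% called over all genes. There TNFRSF14 rose by 0.64 with A3.

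Of 29 other T-cell surface antigens, 22 were tested with the hairpin, and 5 rose and 4 fell (median 0.12, beside 50.8% called over all genes). CD52, a lymphocyte glycoprotein, reached the dim limit on 6 of 33 arrays, those of TS cells with induced A5. Its values are therefore a description with no test, although the count of 5 that rose takes it in. Its differences in TS cells were 3.95 (84 h) and 2.96 (72 h). That in the Su-DHL1 line was 1.22, with both groups below the limit. PTPRC, the CD45 phosphatase, rose by 0.76 ± 0.09. CD53 rose by 0.58 ± 0.07, and CD1B, which presents lipids and reached the dim limit on 9 of 33 arrays, fell by 0.90 ± 0.24. With A2 against A1, 2 of 18 rose and 3 fell (median -0.11, beside 33.4% called over all genes), with CD82 at -1.09 and IL7R, the interleukin-7 receptor, at -0.75. With A3, 1 rose and 3 fell (median -0.06, beside 32.7% called over all genes), with IL7R at -0.95 and CD151 at 0.69.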

How the data were processed

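The deposited table holds intensity values, linear MAS5 signals, 1 for each probe set and array, which the authors computed with MAS5 per the submitters' processing notes. No source used here gives its settings. The mean after trimming 2% at each end was 200.06 to 200.08 on all 33 arrays, and no further normalization was applied. Such scaling hides a global change of RNA content. Of 22283 probe sets, 68 controls were left out. Symbols were taken from the platform annotation (19065 probe sets had 1, 1043 several, 2107 none), and gene IDs of 19053 matched the GRCh38.p14 gene table.

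Signals were taken as log2(signal + 11), 11 being the 20th percentile (10.8) rounded. Kept were probe sets that reached the 40th percentile of an array in 3 or more arrays of the fit, and the brightest of a gene was used. Limma 3.58.1 (R 4.3.3; lmFit, eBayes with trend) was fitted with a mean per group to the 21 hairpin arrays (9101 genes) and to the 12 compound arrays (8594 genes), with two-sided p-values adjusted over all genes. Scripts were tested on simulated data. Python 3.11.15 and matplotlib 3.10.9 drew the figures.

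Groups and replicate numbers came from the titles. Same-numbered samples did not deviate together (correlations -0.182 to 0.100 over 12 pairs of groups), so they were not treated as pairs. Alternatives were other added constants (1 and 32), no filter, quantile normalization, all probe sets, the ACTB ratio as covariate, only the groups compared, the replicate block and leaving out each array.

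The members and the lists were chosen with earlier results of these data known. By rule, all 10 receptors are named. Of each other list, up to 4 called genes with the largest change in the hairpin average and up to 2 in A2 and in A3 against A1 are named. For receptors spanning at least 1 (log2) over the groups, the 3 genes of highest correlation are named. ICOSLG, CD80 and other genes named outside this rule were chosen after their values were seen.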

Additional observations from a re-analysis of the deposited data

Results flagged for a closer look

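ICOS fell by a different amount in the 2 lines at 72 h: the response in Su-DHL1 cells was smaller than that in TS cells by 0.74 on the log2 scale (limma adjusted p = 0.0354), by a test of the difference itself. Induced signals were 81.8, 105 and 140 in Su-DHL1 and 91, 122.1 and 108.4 in TS cells, and uninduced signals were 472, 438.8 and 419.9 against 762.8, 747.4 and 730.2. Only 8 of 20 alternatives kept the call, and none changed its direction (0.56 to 0.91).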

How the results depend on the processing

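Of 380 values of called receptors under the alternatives, 334 kept their call, 46 lost it and 0 changed sign. Of 1476 values of receptors not called, 103 changed sign and 16 became called. The number of receptors called became 0 for A5M against uninduced cells with an added constant of 1, without the filter and with only the groups compared. It became 0 for the difference between the lines with an added constant of 1, with quantile normalization and with the ACTB covariate. It became 1 in Su-DHL1 cells with quantile normalization and with only the groups compared. It became 1 in TS cells at 84 h against uninduced cells, against A5M and in the average with the ACTB covariate, and 2 at 72 h in TS cells with only the groups compared. Leaving out single arrays gave 0 to 1 for A5M against uninduced cells and for the difference between the lines, 1 to 2 for Su-DHL1 cells and the average, and 2 to 4 for A2 against A1. There, without replicate 3 of A1, CD2 and CD6 joined ICOS and CTLA4. With the replicate number as a block, 2 receptors were called in the average and 2 for A2 against A1, and no count of called receptors changed. The causes of these changes were not tested.

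Over all genes, the ACTB covariate lowered the counts from 3699 to 1900 in TS cells at 84 h, from 3942 to 2400 against A5M, from 3108 to 1426 at 72 h, from 4622 to 2441 in the average, from 263 to 91 between the responses of the lines and from 1928 to 1070 between uninduced lines. It lowered them from 2871 to 1354 for A2 and from 2808 to 1452 for A3 against A1, and from 13 to 7 for A3 against A2. With only the groups compared, A5M against uninduced cells fell from 636 to 149 and the lines' responses rose from 263 to 425. Counts of 3 (A1 against U) and 13 (A3 against A2) became 0 and 3 without the filter and 0 and 0 with only the groups compared. A1 against U became 1 (0% higher, against 66.67%) with quantile normalization and 0 with the ACTB covariate, and A3 against A2 became 1 with the block. Leaving out arrays gave 0 to 4 and 0 to 8 there. Testing every probe set in place of 1 per gene gave, for example, 7324 calls in the average and 4608 for A2 against A1. With 3 arrays a group and the signals of most receptors near the dim limit, small changes cannot be seen.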

Other observations

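A partner of CD2 (CD58) and other T-cell surface antigens (IL7R and CD53) moved oppositely in the experiments, chosen here after their values were seen. CD58 rose by 1.54 on the log2 scale in the hairpin average but fell by 0.73 with A3 against A1 (limma adjusted p = 8.64e-04), and with A2 the difference was -0.37 (limma adjusted p = 0.0571). IL7R rose by 0.44 with the hairpin (limma adjusted p = 0.0171) and fell with both inhibitors, by 0.75 and by 0.95. CD53 rose by 0.58 with the hairpin and fell by 0.58 with A3 (limma adjusted p = 0.0126). The differences between the experiments were not tested for these genes, and time and agent differ between them.

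Of the genes flanking the CD28, CTLA4 and ICOS stretch of chromosome 2, ABI2, RAPH1 and PARD3B had no probe set with their symbol alone. NRP2, a semaphorin receptor, fell by 0.30 in the hairpin average (limma adjusted p = 0.00480), where 50.8% of all genes were called. It was called in no single hairpin setting (limma adjusted p = 0.0531 in TS cells at 84 h, 0.0558 at 72 h and 0.481 in Su-DHL1 cells). It fell by 0.82 with A2 and by 0.61 with A3 against A1 (limma adjusted p = 0.00176 and 0.0139).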
